A study of Mus musculus with 10 samples.

Results

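The genes described here are 10 genes that mark pericytes and vascular smooth muscle cells, the mural cells that wrap small brain vessels. They are Pdgfrb, Notch3, Anpep, Cspg4, Kcnj8, Abcc9, Rgs5, Vtn, Acta2 and Cnn1. Each was taken as the brightest probe set, over all 10 arrays, among those that the platform annotation pairs with that gene symbol and no other. All 10 were found among 22180 genes with such a probe set, and all 10 were among the 17712 genes left after dim probe sets were removed. Rgs5 had 2 such probe sets and the other members had 1 each.

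The arrays were hybridised with RNA from cortical cells of mice aged 8 weeks, sorted by FACS on an EGFP reporter carried by astrocytes. The Control group, 5 arrays, was labelled wild-type, and the other 5 arrays were labelled FMR1_KO, a knockout of the gene whose product FMRP is missing in fragile X syndrome. The labels give no sex, strain or allele, do not name the promoter that drives the reporter, and do not say whether an array held 1 animal or a pool. The replicates are called biological, and nothing more says what separates them, so p-values reflect array-to-array spread, which may be technical.

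Pericytes and smooth muscle cells share the basement membrane of the vessel with endothelial cells and with astrocyte endfeet. Endothelial PDGF-B recruits pericytes through the receptor that Pdgfrb encodes, and Notch3 is the Notch receptor of mural cells, needed to keep smooth muscle on arteries. Pericytes carry a potassium channel gated by ATP that couples their membrane voltage to metabolism, and smooth muscle cells carry the actin and calponin of the contractile apparatus. None of these genes is in common use as an astrocyte marker, and several are used by other cells of the brain, as given below.

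Fmr1 itself did not read lower on the arrays labelled FMR1-KO, at a log2 level of 8.22 ± 0.15 (SD, n = 5) against 8.04 ± 0.26 (SD, n = 5), so the labels are used as given and the target gene does not check them. Control arrays 2 and 3 carried Xist, a transcript of female cells, at 10.60 and 10.98, and the other 8 arrays read at most 5.23. The Y-linked genes Uty, Kdm5d and Eif2s3y differed between the groups by 1.30, 1.07 and 1.24. Without Control arrays 2 and 3 they differed by 0.05, 0.10 and -0.13. Sex signal is thus uneven between the groups, and with all arrays it cannot be fully told apart from the group. The mean of 20 astrocyte markers read 10.32 on Control array 1, 10.69 on FMR1-KO array 1 and 10.76 on FMR1-KO array 2, against 9.62 to 10.00 on the other 7 arrays. On the same 3 arrays the mean of 22 microglia and macrophage markers read 9.35, 9.18 and 8.65, against 9.63 to 10.16 elsewhere. Between the groups, the FMR1-KO arrays had the higher mean for 20 of the 20 astrocyte markers (median difference 0.40, 6 at an unadjusted p under 0.05) and the lower mean for 22 of the 22 microglia markers (median -0.54, 6 at an unadjusted p under 0.05), with 0 of either called in limma. Control array 1 and FMR1-KO arrays 1 and 2 stood apart on the first principal component, the main axis of variation (48.5% of the variance). A setting without these arrays was thus chosen from the same data. In it, 16 astrocyte markers were higher (median 0.16) and 21 microglia markers lower (median -0.30). Over all genes tested, 44% averaged higher in that setting.

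The files hold no detection call, so background was read from 1405 probe sets of olfactory and vomeronasal receptor genes. The 95th percentile of their mean log2 levels, 6.28, served as the background line. Their median was 4.83, and the median over all probe sets of each array, 6.11 to 6.24, also lay under the line. A gene called at background here is thus one not above this line, and is not shown to be absent. Cnn1, which encodes the smooth muscle calponin, read below this line on 10 of 10 arrays. Kcnj8, the pore subunit of the vascular ATP-sensitive potassium channel, exceeded it on 2 of 10 arrays, FMR1-KO arrays 2 and 5, which both read 6.28 and so differ from the line only beyond its second decimal. These are the members whose group means both lay at background. Cspg4, the NG2 proteoglycan, exceeded the line on 8 arrays and Abcc9 on 9. The other 6 members were above it on all 10 arrays. Levels of different genes come from different probe sets and cannot be ranked against each other.

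**Figure D1:**
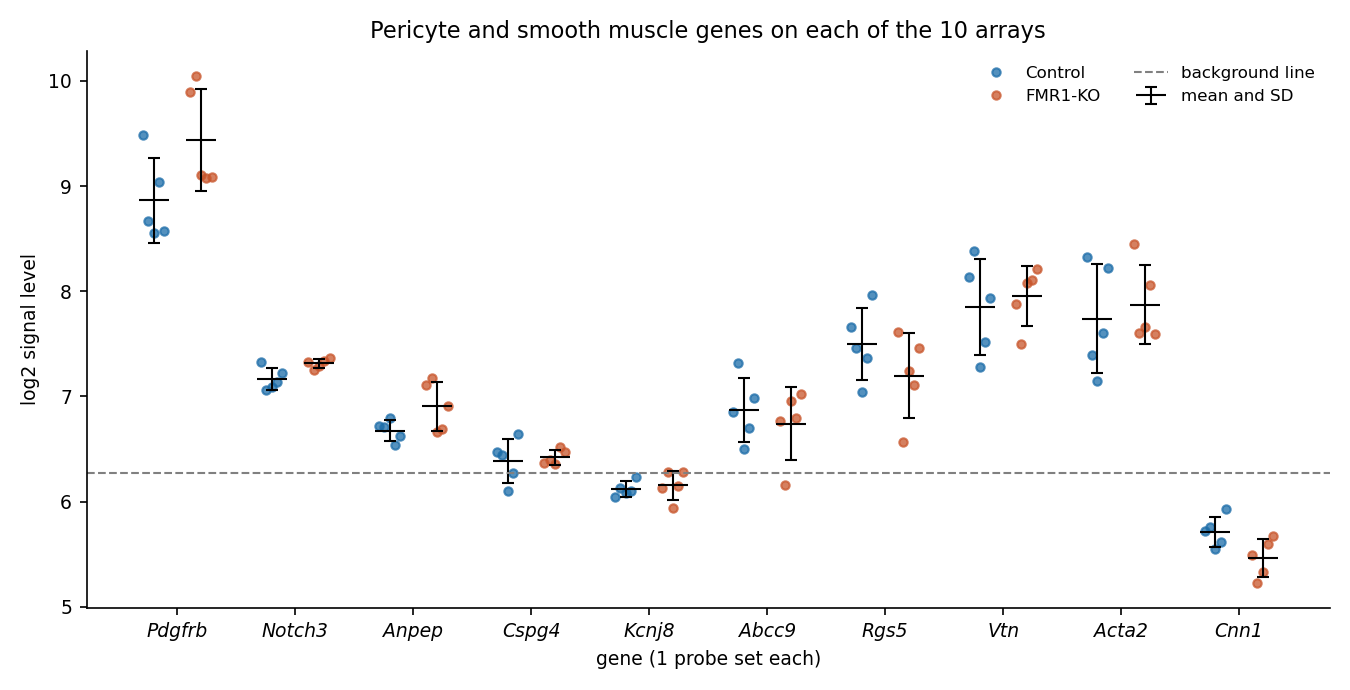
The log2 signal level (vertical axis) is plotted for each of the 10 genes (horizontal axis), with 1 point per array, 5 Control arrays at left and 5 FMR1-KO arrays at right of each gene, and black bars for the mean and SD. Points of the groups overlap for every gene, and Kcnj8 and Cnn1 lie at or under the dashed background line at 6.28.

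No member passed the test between the groups. In limma, with Benjamini-Hochberg adjustment over 17712 genes, 0 of the 10 members were called at an adjusted p under 0.05, and the share called over all genes was 0%. The smallest adjusted p among the members was 0.654. An exact two-sided permutation test over the 252 assignments of arrays to groups put 1 of the 10, Notch3, under an unadjusted 0.05. In that test 5.89% of all genes lay there. After adjustment over all genes it called 0 members. With 252 assignments its p-values cannot be small enough to pass adjustment over 17712 genes unless very many genes reach the smallest one. This 0 therefore adds nothing to the limma result. In limma at an unadjusted p under 0.05, 1 member was higher on the arrays labelled FMR1-KO (Pdgfrb) and 1, at background, was lower (Cnn1). Of all genes, 4% and 3.53% lay in these directions and 7.53% in either. Of the 10 members, 7 had a higher and 3 a lower mean on the FMR1-KO arrays, beside 46.8% of all genes with a higher mean. Without Control arrays 2 and 3 the members divided into 5 higher and 5 lower, beside 49.7% of all genes with a higher mean. The median difference over the members was 0.07 on the log2 scale, and over all genes it was -0.01. The groups overlapped for all 10 members, beside 0.965% of all genes without overlap.

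**Figure D2:**
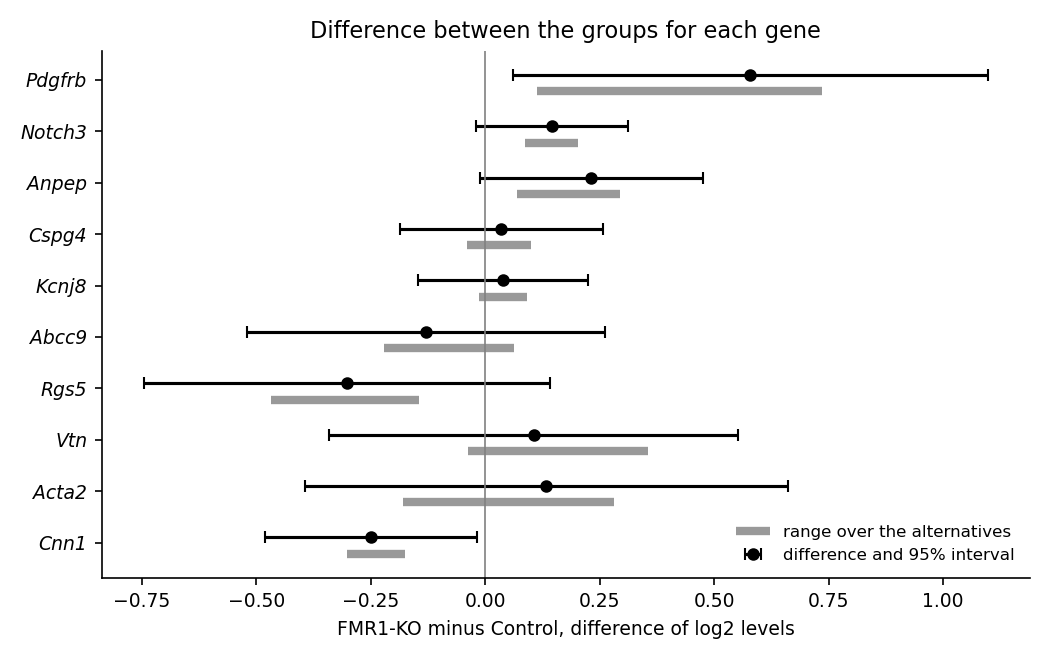
Points give the difference between group means (FMR1-KO minus Control, log2 units, horizontal axis) for each gene (vertical axis), thin lines its 95% interval, and grey bars the range of the difference over the alternative settings. Only the intervals of Pdgfrb (0.06 to 1.10) and Cnn1 (-0.48 to -0.02) leave out 0, before any adjustment for the number of genes. Cnn1 read under the background line on every array.

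Pdgfrb, the receptor for PDGF-B on pericytes, had the widest range of the members across arrays, 1.49 log2 units. On the Control arrays 1 to 5 its log2 level read 9.49, 8.67, 8.56, 9.04 and 8.57. On FMR1-KO arrays 1 to 5 it read 9.89, 10.05, 9.11, 9.08 and 9.09. Its high values were those of Control array 1 and FMR1-KO arrays 1 and 2, so the groups overlapped, and 2 of the 5 FMR1-KO arrays read above every control. The group means were 9.44 ± 0.48 (SD, n = 5) on FMR1-KO arrays and 8.86 ± 0.40 (SD, n = 5) on Control arrays. The means differed by 0.58 ± 0.24 (SE; 95% interval 0.06 to 1.10), a ratio of 1.49, which did not pass (limma, adjusted p = 0.654; range over the alternatives 0.217 to 1.0). All 5 FMR1-KO arrays lay above the control mean.

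The arrays on which Pdgfrb was high are those with high astrocyte and low microglia markers. With each profile centred on its own mean, the Pdgfrb profile differed from the mean of the 20 astrocyte markers by a root mean square of 0.15 log2 units, against a spread of 0.49 about its own mean. For the other 9 members the same distance from the astrocyte markers ran from 0.27 to 0.63, in each case more than the member's own spread. A member much flatter than the astrocyte mean lies apart from it whatever its pattern. For flatter members such as Notch3, Kcnj8, Cspg4 and Anpep, this distance does not show an unlike pattern. Adding the astrocyte marker mean to the model gave a Pdgfrb difference of 0.16 ± 0.10 (SE), and adding the microglia marker mean gave 0.11 ± 0.14 (SE), both settings chosen after the data were seen. Both marker means differed between the groups, so these fits cannot tell group and marker levels apart, and the cause was not tested. Without Control array 1 and FMR1-KO arrays 1 and 2 the Pdgfrb difference was 0.38 ± 0.13 (SE), and without Control arrays 2 and 3 it was 0.41 ± 0.29 (SE), with adjusted p values in limma of 0.371 and 0.893. In the first of these settings the remaining FMR1-KO arrays read 9.08 to 9.11 and the remaining controls 8.56 to 9.04. The arrays left out there were chosen from the same data and held the highest Pdgfrb values. The smaller SE is therefore not independent of that choice. In bulk samples, fewer cells of a type and less RNA per cell cannot be told apart.

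**Figure D3:**
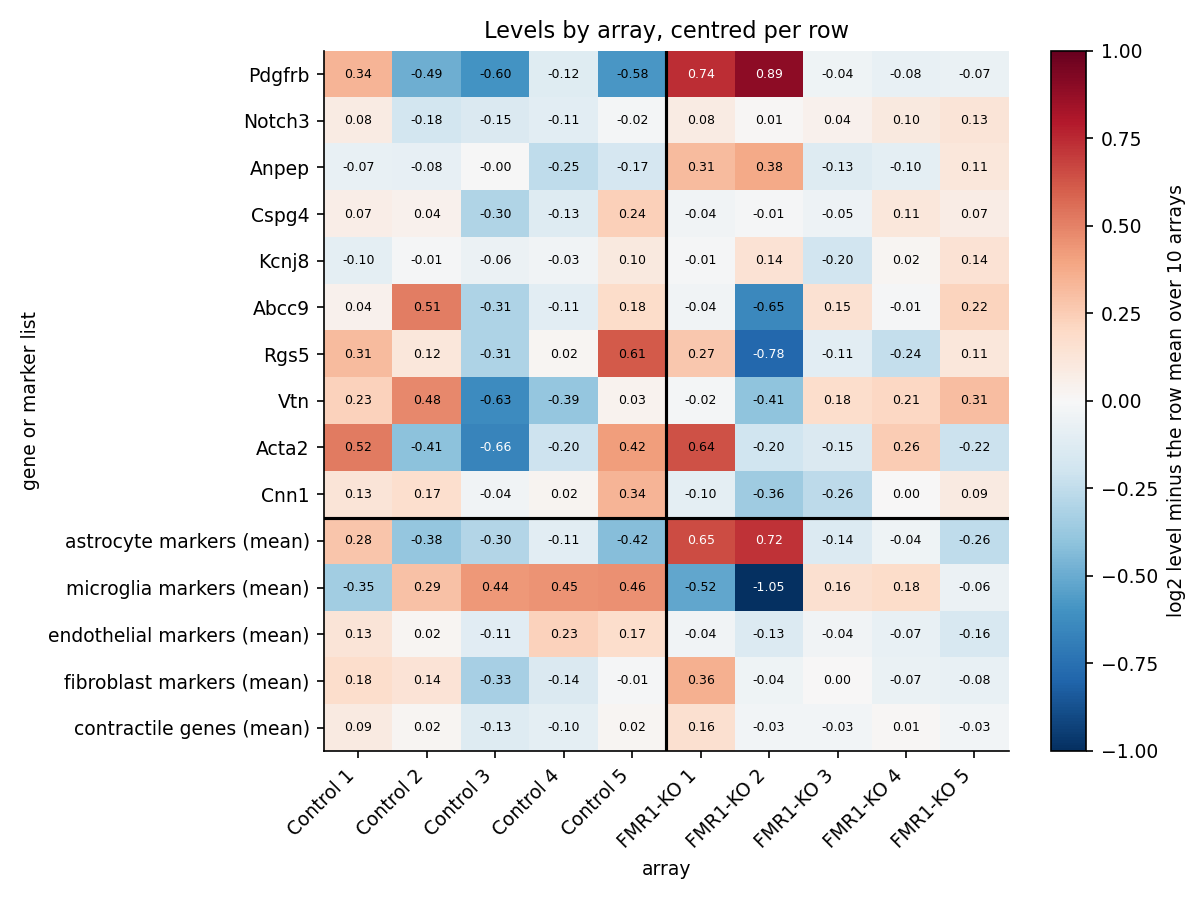
Each row is a member gene or the mean of a marker list, each column an array, and each cell the log2 level minus the row's mean over the 10 arrays, with red for higher and blue for lower values. Pdgfrb and the astrocyte marker mean are both highest on FMR1-KO arrays 1 and 2, with Pdgfrb at 0.74 and 0.89, while Rgs5 and Abcc9 are lowest on FMR1-KO array 2, at -0.78 and -0.65.

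The genes with the most similar profile to Pdgfrb were Nrcam, a neural cell adhesion molecule, Arap2, a regulator of small GTPases, and Adhfe1, a mitochondrial enzyme. Likeness was measured as the root mean square difference between centred log2 profiles over the 10 arrays, across all genes tested, and was 0.07, 0.07 and 0.08 for these genes. All 3 were highest on FMR1-KO array 2 and lowest on Control array 5. The nearest other member was Anpep, at a distance of 0.37 and in place 2127 of that ranking. Rgs5 stood at 0.71 and Abcc9 at 0.70 from Pdgfrb, both wider than the spread of Pdgfrb itself.

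Notch3 varied least among the members above background, with a range of 0.31 log2 units over the 10 arrays. Its log2 level read 7.32, 7.06, 7.09, 7.13 and 7.22 on Control arrays 1 to 5. It read 7.32, 7.25, 7.28, 7.34 and 7.37 on FMR1-KO arrays 1 to 5. The FMR1-KO arrays were close together and all above the control mean, and Control array 1 read among them, so the groups overlapped. The difference was 0.15 ± 0.08 (SE; 95% interval -0.02 to 0.31), with means of 7.31 ± 0.04 and 7.17 ± 0.11 (SD, n = 5 each). It did not pass in limma (adjusted p = 0.664), and the exact permutation test gave an unadjusted p = 0.0397. The difference was 0.09 ± 0.08 (SE) without Control arrays 2 and 3 and 0.20 ± 0.10 without Control array 1 and FMR1-KO arrays 1 and 2.

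Anpep encodes aminopeptidase N, or CD13, a surface enzyme of pericytes that macrophages and fibroblasts can carry as well. It read 6.72, 6.71, 6.79, 6.54 and 6.62 on Control arrays 1 to 5 and 7.10, 7.17, 6.66, 6.69 and 6.90 on FMR1-KO arrays 1 to 5. FMR1-KO arrays 1, 2 and 5 lay above every control, and arrays 3 and 4 lay among the controls. The means differed by 0.23 ± 0.11 (SE; 95% interval -0.01 to 0.47), not past the threshold (limma, adjusted p = 0.656). Leaving out Control array 1 and FMR1-KO arrays 1 and 2 gave 0.09, a covariate of microglia markers 0.07 and one of astrocyte markers 0.12. These marker levels differ between the groups, and their part in the Anpep difference was not tested.

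Cspg4 encodes the NG2 proteoglycan, which pericytes share with oligodendrocyte precursors. Its log2 level was 6.47, 6.44, 6.10, 6.27 and 6.64 on Control arrays 1 to 5, and 6.37, 6.39, 6.36, 6.52 and 6.47 on FMR1-KO arrays 1 to 5. Every FMR1-KO array lay within the span of the controls. The difference was 0.04 ± 0.10 (SE; 95% interval -0.19 to 0.26; limma adjusted p = 0.943), and it was -0.04 without Control array 3. Among the 11 markers of oligodendrocyte precursors that were tested, 6 had a higher and 5 a lower mean on the FMR1-KO arrays, with 0 called and 0 at an unadjusted p under 0.05. Pdgfra, which marks these precursors and also fibroblasts, read 6.38 ± 0.27 on Control and 6.26 ± 0.22 (SD, n = 5 each) on FMR1-KO arrays, close to the background line.

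Kcnj8 and Abcc9 encode the pore and the sulfonylurea receptor subunit of the vascular ATP-sensitive potassium channel, and they lie next to each other on chromosome 6 in the RefSeq annotation. Kcnj8 read 6.04 to 6.24 (median 6.10) on Control and 5.94 to 6.28 (median 6.15) on FMR1-KO arrays. This is at background, so its difference of 0.04 ± 0.09 (SE; limma adjusted p = 0.927) does not show that Kcnj8 was the same in the groups. Abcc9 read 6.85, 7.32, 6.50, 6.70 and 6.99 on Control arrays 1 to 5 and 6.77, 6.16, 6.96, 6.80 and 7.03 on FMR1-KO arrays 1 to 5. Its lowest array was FMR1-KO array 2 and its highest was Control array 2. The difference was -0.13 ± 0.18 (SE; 95% interval -0.52 to 0.26; limma adjusted p = 0.873), and without FMR1-KO array 2 it was 0.02. The subunits of the related channel of neurons and beta cells, Kcnj11 and Abcc8, differed by 0.13 ± 0.08 and -0.07 ± 0.08 (SE), neither past the test (limma adjusted p = 0.699 and 0.825), and Abcc8 was at background, above the line on 0 of 10 arrays.

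Rgs5 encodes a regulator of G-protein signalling that is abundant in brain pericytes. Its brighter probe set read 7.66, 7.46, 7.04, 7.37 and 7.96 on Control arrays 1 to 5. It read 7.61, 6.56, 7.24, 7.11 and 7.46 on FMR1-KO arrays 1 to 5. FMR1-KO array 2 lay below every other array, 4 of the 5 FMR1-KO arrays lay under the control mean, and the groups overlapped. Means were 7.20 ± 0.40 and 7.50 ± 0.34 (SD, n = 5 each), which differ by -0.30 ± 0.20 (SE; 95% interval -0.75 to 0.14), short of the threshold (limma adjusted p = 0.702). Leaving out FMR1-KO array 2 gave -0.14, and leaving out Control arrays 2 and 3 gave -0.47. The dimmer probe set of Rgs5 read near background, at 5.92 ± 0.25 on Control and 5.80 ± 0.27 (SD, n = 5 each) on FMR1-KO arrays, a difference of -0.12. Its lowest array was FMR1-KO array 3 and its highest was Control array 2, so the probe sets of this gene did not rank the arrays alike.

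Vtn encodes vitronectin, a secreted matrix protein that brain pericytes make. It read 8.14, 8.39, 7.27, 7.52 and 7.94 on Control arrays 1 to 5 and 7.88, 7.50, 8.08, 8.11 and 8.21 on FMR1-KO arrays 1 to 5. Control arrays 3 and 4 and FMR1-KO array 2 were the low ones, and every FMR1-KO array lay within the span of the controls. The difference was 0.11 ± 0.20 (SE; 95% interval -0.34 to 0.55; limma adjusted p = 0.916). Leaving out Control array 3 gave -0.04, and leaving out Control array 1 with FMR1-KO arrays 1 and 2 gave 0.36.

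Acta2 encodes smooth muscle actin, the thin filament protein of arterial smooth muscle. It read 8.33, 7.40, 7.14, 7.60 and 8.23 on Control arrays 1 to 5 and 8.45, 7.61, 7.66, 8.06 and 7.59 on FMR1-KO arrays 1 to 5. Arrays with high values occurred in both groups, Control arrays 1 and 5 and FMR1-KO arrays 1 and 4. The difference was 0.13 ± 0.24 (SE; 95% interval -0.39 to 0.66; limma adjusted p = 0.908), with means of 7.87 ± 0.37 and 7.74 ± 0.52 (SD, n = 5 each). It turned to -0.02 when Control array 3 was left out, to -0.01 without FMR1-KO array 1 and to -0.18 without Control arrays 2 and 3.

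Cnn1, the calponin that binds actin in differentiated smooth muscle, read 5.72, 5.76, 5.55, 5.61 and 5.93 on Control arrays 1 to 5 and 5.49, 5.23, 5.33, 5.59 and 5.67 on FMR1-KO arrays 1 to 5. All 5 FMR1-KO arrays lay under the control mean, 3 of them under every control, with the whole range at background. The means differed by -0.25 ± 0.11 (SE; 95% interval -0.48 to -0.02), not past the threshold (limma adjusted p = 0.654; range over the alternatives 0.378 to 1.0). Its paralogs read above background. Cnn2, a calponin of many cell types that includes macrophages, read 7.11 to 7.99 on Control and 6.75 to 7.09 on FMR1-KO arrays, without overlap, and differed by -0.52 ± 0.15 (SE). Cnn3, the calponin of non-muscle cells, read 9.22 to 10.08 and 9.23 to 10.50, and differed by 0.24 ± 0.24 (SE). Without Control array 1 and FMR1-KO arrays 1 and 2 the differences were -0.54 and -0.02. Neither passed in limma (adjusted p = 0.654 and 0.81), and microglia and astrocyte marker levels differed between the same arrays, whose part in these values was not tested.

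The members did not share a single pattern across arrays. Control array 3 read below the 10-array mean for 10 of 10 members, only just so for Anpep, and it was the lowest of all arrays for Pdgfrb, Cspg4, Vtn and Acta2. FMR1-KO array 2 was the lowest for Abcc9, Rgs5 and Cnn1 and the highest for Pdgfrb and Anpep. Control array 1 and FMR1-KO array 5 each read above the mean for 8 members. Control array 5 was the highest for Cspg4, Rgs5 and Cnn1.

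The 5 members above background with a range over 1 log2 unit were Pdgfrb, Abcc9, Rgs5, Vtn and Acta2. They were compared with each other and with the flatter Notch3, Anpep and Cspg4, which were not compared among themselves. In these comparisons Abcc9 and Vtn were the closest pair. Their centred profiles differed by 0.19, with own spreads of 0.30 and 0.34, and Abcc9 stood in place 4 among all genes tested in the ranking for Vtn, while Vtn stood in place 63 in the ranking for Abcc9. Both were highest on Control array 2. The gene nearest to Abcc9 was Ube2n, a ubiquitin-conjugating enzyme, at 0.12, followed by the claudin gene Cldn3 and by Zfp57, at 0.13 each. Those nearest to Vtn were Gm16500, the taste receptor gene Tas2r143 and the microRNA gene Mir758, at 0.17 to 0.19. These probe sets read 5.69 to 6.29, 5.47 to 6.41 and 5.74 to 6.79, around or under the background line of 6.28, so their likeness to Vtn is read from signal near background.

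For Acta2 the nearest profiles were Fn1, which encodes the matrix protein fibronectin, at 0.21, Dock5 at 0.22 and Myh11, the smooth muscle myosin heavy chain, at 0.23, against a spread of 0.41 for Acta2 itself. Myh11 read 7.81, 7.01, 7.15, 7.37 and 8.02 on Control arrays 1 to 5 and 7.69, 7.34, 7.32, 7.58 and 7.67 on FMR1-KO arrays 1 to 5, with its highest values on Control arrays 5 and 1, which also read high for Acta2. For Rgs5 they were F13a1, a coagulation factor subunit found in macrophages, at 0.14, Ces1a at 0.19 and S1pr5 at 0.23, against a spread of 0.37. All 3 were lowest on FMR1-KO array 2, but Ces1a read 4.91 to 5.76, under the background line on every array, and F13a1 read 5.67 to 6.94, on both sides of it. Astrocyte and microglia markers differ between the same arrays, and their part in these likenesses was not tested. Likeness is a description and says nothing of shared control or function.

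**Figure D4:**
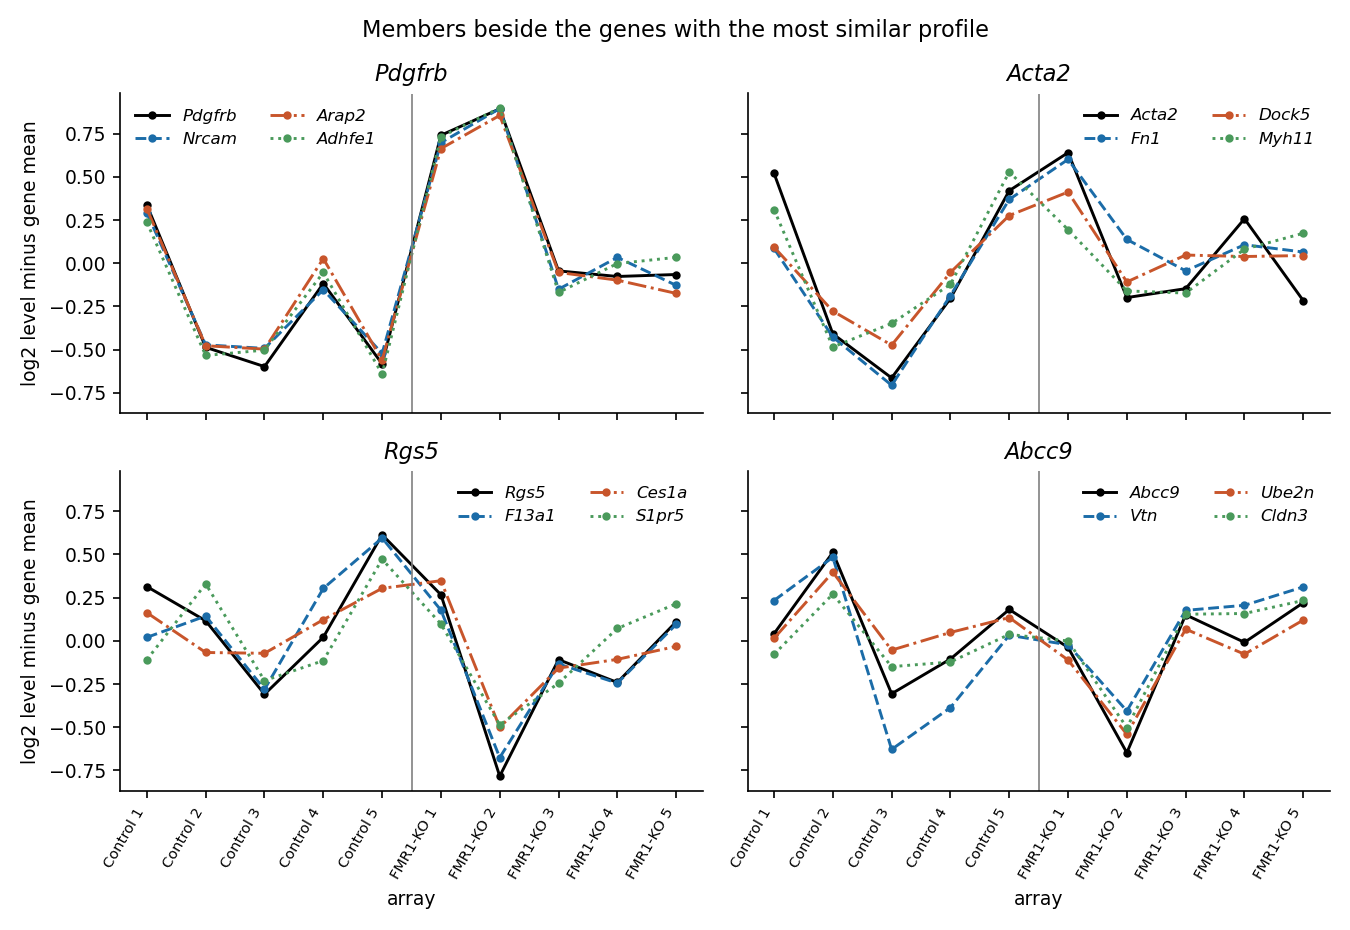
Each panel shows 1 member (black) and other genes, as log2 level minus the gene's mean (vertical axis) on each array (horizontal axis, with a grey line between the groups); lines only join points of a gene. The curves of the Pdgfrb panel run close together, at root mean square differences of 0.07 to 0.08, while in the Abcc9 panel, drawn with Vtn and the nearest genes Ube2n and Cldn3, the curves part on Control array 3.

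Promoter sequences are shown for Abcc9 and Vtn, the closest pair of those 5, and for Acta2, each as the 250 bases before the start site in RefSeq annotation of build GRCm38.p6, read 5′ to 3′ on the gene's strand. Capitals mark TGGGAA, the core letters bound by RBPJ, the DNA-binding partner of Notch receptors, searched on both strands. Abcc9 lies at chr6:142702275-142702524 (minus strand), Vtn at chr11:78498870-78499119 (plus strand) and Acta2 at chr19:34255374-34255623 (minus strand).
Abcc9: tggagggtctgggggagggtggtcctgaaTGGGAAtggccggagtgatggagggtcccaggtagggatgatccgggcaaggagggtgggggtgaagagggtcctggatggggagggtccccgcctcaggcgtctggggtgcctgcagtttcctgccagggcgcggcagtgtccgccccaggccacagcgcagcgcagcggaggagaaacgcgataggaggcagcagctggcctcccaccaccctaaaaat
Vtn: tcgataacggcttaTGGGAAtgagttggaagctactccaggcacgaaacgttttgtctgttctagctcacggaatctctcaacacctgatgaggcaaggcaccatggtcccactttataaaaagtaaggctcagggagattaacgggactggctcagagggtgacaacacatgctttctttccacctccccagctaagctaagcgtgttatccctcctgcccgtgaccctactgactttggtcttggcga
Acta2: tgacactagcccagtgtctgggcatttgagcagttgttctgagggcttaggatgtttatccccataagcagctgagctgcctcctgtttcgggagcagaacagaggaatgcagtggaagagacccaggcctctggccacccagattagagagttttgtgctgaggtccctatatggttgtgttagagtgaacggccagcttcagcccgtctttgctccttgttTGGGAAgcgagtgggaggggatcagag
These 3 held the letters once each, starting 221, 236 and 27 bases before the start site, and the other 6 members whose window was searched held none. The 3 shown are thus all the searched members with these letters, and the window of Pdgfrb was not searched. Of 32851 promoter windows of the same length, 21.6% held them. The CArG box of serum response factor, which drives smooth muscle genes, reads CC, then 6 letters that are A or T, then GG, the same on both strands. None of the 9 windows held it in full, beside 1.47% of all windows. With 1 letter off allowed, a search added after the data were seen, the Acta2 window held ccctatatgg and ccttgtttgg, starting 84 and 34 bases before the start site, and the latter overlaps the letters in capitals. Matches of this looser kind stood in 3 of the 9 windows (Acta2, Cspg4 and Kcnj8) and in 18.6% of all windows. These are matches of letters and show no binding, and no match in full says nothing of the factor.

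Other genes of mural cells were read from a list of 26, of which 23 were tested and 17 of these lay at background in both groups. The list holds transcription factors, enzymes and channels of pericytes and smooth muscle. On the FMR1-KO arrays 12 of the 23 averaged higher and 11 lower. The median difference was 0.01, 0 were called, and 1 was higher and 0 lower at an unadjusted p under 0.05. That gene was Atp13a5, a transport ATPase known from brain pericytes. It read 8.26, 7.38, 7.33, 7.54 and 7.57 on Control arrays 1 to 5 and 8.16, 8.40, 8.06, 8.04 and 8.10 on FMR1-KO arrays 1 to 5. All FMR1-KO arrays and Control array 1 read above 8 and the other 4 controls below, and the difference of 0.54 ± 0.16 (SE) did not pass (limma adjusted p = 0.654). It was 0.36 ± 0.17 (SE) without Control arrays 2 and 3 and 0.61 ± 0.10 without Control array 1 and FMR1-KO arrays 1 and 2. Heyl, a Notch target, differed by 0.18 ± 0.11 (SE; adjusted p = 0.694) and Slc6a20a, an amino acid transporter, by 0.09 ± 0.12 (SE; adjusted p = 0.869). Tbx3 differed by -0.12 ± 0.08 (SE), and Lamc3, at background, by -0.16 ± 0.11.

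The contractile list held 20 tested genes, 7 of them at background. On the FMR1-KO arrays 13 averaged higher and 7 lower. The median difference was 0.06, 0 were called, and Cnn2 was the 1 gene at an unadjusted p under 0.05. Myh11 differed by 0.05 ± 0.18 (SE) and the myosin light chain Myl9 by 0.04 ± 0.13. Phospholamban, Pln, differed by 0.20 ± 0.12, Mustn1 by 0.14 ± 0.08 and tropomyosin Tpm2, at background, by 0.12 ± 0.07, none past the test (limma adjusted p = 0.678 or higher).

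Among 26 tested ligands, receptors and targets of the PDGF, Notch, angiopoietin and TGF-beta pathways, 15 averaged higher and 11 lower on the FMR1-KO arrays. The median difference was 0.02, 0 were called, and 0 higher and 2 lower genes had an unadjusted p under 0.05. The lower ones were Tgfbr1, a TGF-beta receptor, at -0.70 ± 0.30 (SE), and its co-receptor Eng at -0.72 ± 0.32, with an adjusted p of 0.654 for each in limma. Tgfbr1 read 8.93 and 9.58 on FMR1-KO arrays 2 and 1 and 10.09 on Control array 1, where the other 7 arrays ran from 10.27 to 10.99. Eng read 7.73, 8.04 and 8.45 on the same 3 arrays and 8.86 to 9.67 elsewhere. The 3 low arrays are those with the lowest microglia markers. Without them Tgfbr1 differed by -0.36 ± 0.12 and Eng by -0.45 ± 0.12 (SE; limma adjusted p = 0.369 and 0.297). Over the list 7 genes then averaged higher and 19 lower, 5 of these at an unadjusted p under 0.05 in limma. Of all 17712 genes tested in that setting, 44% averaged higher, and 986 were lower at an unadjusted p under 0.05. The PDGF ligand Pdgfc differed by 0.28 ± 0.13 and the Notch target Nrarp by 0.48 ± 0.25 (SE; adjusted p = 0.656 and 0.664), and Nrarp read 9.34 on FMR1-KO array 2 and 7.61 to 8.52 on the other 9. Without the same 3 arrays Nrarp differed by 0.15 ± 0.13 (SE). The Notch receptor Notch2 differed by 0.10 ± 0.13 and the ligand Tgfb1 by -0.58 ± 0.33 (SE), which was -0.28 ± 0.11 without those arrays.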

How the data were processed

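RNA was measured on 10 Affymetrix arrays. The authors deposited 1 signal per probe set and array on a log2 scale, a scale inferred from the numbers themselves (4.31 to 13.9, array medians 6.11 to 6.24). How background, normalization and summary were done is not given in the sources used here. Arrays give no depth, so their number limits the precision. Per the labels' protocols, cDNA was amplified and labelled with biotin.

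Of 33793 probe sets, 23521 had 1 gene symbol, 1814 several and 8458 none. The 23328 of the first found by gene ID in RefSeq (GRCm38.p6) kept their symbol. For each gene the brightest probe set was kept, and genes averaging under 5.32, the 25th percentile over all probe sets, were left out. Differences were fitted over all genes with limma 3.58.1 (lmFit, eBayes; R 4.3.3), two-sided, without covariates, with Benjamini-Hochberg adjustment and a threshold of 0.05. The script was tested on simulated data. The likeness ranking covers members above background with a range over 1, naming the 3 nearest genes. In each other list the genes named are up to 4 with the smallest p and up to 3 with the highest level. Pdgfra, Cnbd2 and Tlcd1 are named outside that rule, after their values were seen. The members and lists were chosen with earlier results of these data known. Alternatives are given at the end.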

Additional observations from a re-analysis of the deposited data

Results flagged for a closer look

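Of 38 groups of 5 arrays examined for a single array far from the rest (10 members and 9 marker list means, each in both groups), 3 were marked, where chance marks about 1 in 20. None was a member gene. The mean of the contractile list read 6.84 on FMR1-KO array 1, against 6.65 to 6.70 on the other 4 arrays of that group. The mean of the fibroblast list read 7.42 on the same array, against 6.99 to 7.06. The microglia marker mean read 9.35 on Control array 1, against 9.99 to 10.16 on the other controls. Acta2 had its highest value, 8.45, on FMR1-KO array 1 as well.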

How the results depend on the processing

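Over 23 alternatives, 0 members passed the threshold in each, and their adjusted p ran from 0.217 (Pdgfrb without Control array 1) upward. The exact permutation test among them could hardly call any gene after adjustment. Over all genes 0 were called, except 1 without Control array 5 (Cnbd2) and 1 without Control array 1 and FMR1-KO arrays 1 and 2 (Tlcd1), neither of them a member; leaving out each array in turn gave 0 to 1. Pdgfrb, Notch3, Anpep, Rgs5 and Cnn1 kept their direction in every alternative that gave a value, with Pdgfrb between 0.11 and 0.74, Notch3 0.09 and 0.20, Anpep 0.07 and 0.29, Rgs5 -0.47 and -0.14, and Cnn1 -0.30 and -0.17. The filter at the median left out Kcnj8 and Cnn1. Directions changed for Abcc9 with array weights (0.025), with the microglia (0.059) or astrocyte (0.063) marker mean as a covariate, and without the 3 arrays named above (0.050). They changed for Kcnj8 with array weights (-0.0083) and without those 3 arrays (-0.0125), for Cspg4 without Control arrays 2 and 3 (-0.040), and for Acta2 without Control arrays 2 and 3 (-0.18) and with the astrocyte covariate (-0.041). Leaving out each array in turn, Abcc9 ran from -0.22 to 0.017, Acta2 from -0.015 to 0.28, Cspg4 from -0.036 to 0.10 and Vtn from -0.038 to 0.24. The median over the members was 0.07 with all arrays. It ran from -0.03 without Control array 3 to 0.12 without Control array 1, and it was -0.01 without Control arrays 2 and 3. Each of these departs from 0.07 by less than the spread of 0.14 between arrays. The cause of these changes was not tested. The replicate number as a block changed no call, with Pdgfrb at 0.58 and an adjusted p of 0.32, and 2080 against 1334 genes at an unadjusted p under 0.05. That count ran from 718 without Control arrays 2 and 3 to 2425 without Control array 1. Deviations of same-numbered arrays correlated between -0.02 and 0.53 across genes, and 0 of the 5 control arrays correlated best with its own number. For Control array 1 the best match was FMR1-KO array 2, at 0.56. Astrocyte and microglia marker levels differ between arrays and enter these correlations. The check therefore cannot decide whether the numbers pair the arrays. Signal near background limits Kcnj8, Cnn1 and part of Cspg4.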

Other observations

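Endothelial cells, which line the vessels that pericytes cover, were read from 19 tested markers, 4 of them at background. On the FMR1-KO arrays 3 averaged higher and 16 lower. The median difference was -0.15, with 0 called, and 6 lower and 0 higher at an unadjusted p under 0.05 in limma. Over all genes, 46.8% averaged higher and 3.53% were lower at an unadjusted p under 0.05. Eng, given above as low on Control array 1 and FMR1-KO arrays 1 and 2, is among the 6. Flt1, a VEGF receptor, read 7.28, 6.78, 6.58, 7.17 and 7.12 on Control arrays 1 to 5 and 6.50 to 6.61 on FMR1-KO arrays, a difference of -0.45 ± 0.12 (SE). The tight junction gene Cldn5, above the background line on 4 of 10 arrays, differed by -0.41 ± 0.13 (SE). Ptprb, above the line on 5 of 10 arrays, differed by -0.38 ± 0.12, and Emcn, at background, by -0.23 ± 0.08 (SE). The limma adjusted p was 0.654 for Flt1, Cldn5, Ptprb and Emcn. On the same arrays the microglia markers averaged lower (22 of 22, median -0.54) and the astrocyte markers higher (20 of 20, median 0.40), and their part in the endothelial values was not tested. Leaving out Control array 1 and FMR1-KO arrays 1 and 2 gave 15 lower endothelial markers with a median of -0.20, and leaving out Control arrays 2 and 3 gave 17 with a median of -0.27, where Flt1 differed by -0.65 ± 0.08 (SE; limma adjusted p = 0.242). Over all genes tested, 44% and 49.7% averaged higher in these settings, in that order. Slco1c1, a thyroid hormone transporter that astrocytes share with endothelial cells, differed by 0.44 ± 0.22 (SE).

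Fibroblasts of the vessel wall and meninges were read from 12 tested markers, of which 8 averaged higher and 4 lower. The median difference was 0.11, with 0 called, and 1 at an unadjusted p under 0.05. That gene was Fbln1, a matrix protein, at 0.38 ± 0.15 (SE; limma adjusted p = 0.654), and at 0.23 ± 0.12 without Control array 1 and FMR1-KO arrays 1 and 2. The collagen genes Col1a1, Col1a2 and Col3a1 differed by 0.23 ± 0.14, 0.16 ± 0.14 and 0.11 ± 0.09 (SE). All 10 tested choroid plexus markers had a lower mean on the FMR1-KO arrays, with a median difference of -0.28 and 0 called, and 0 at an unadjusted p under 0.05. FMR1-KO array 2 was the lowest array for 9 of the 10, as it was for 21 of the 22 microglia markers. Without Control array 1 and FMR1-KO arrays 1 and 2, 7 choroid plexus markers were higher and 3 lower (median 0.06), and without Control arrays 2 and 3 all 10 were lower (median -0.52), values added after the data were seen. Beside them, 44% and 49.7% of all genes tested averaged higher in these settings, and 46.8% did so with all 10 arrays.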
